A study of Ambystoma californiense with 99 samples.

Results

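Whole brain was compared with leg muscle in 12 salamanders tagged F1 and control. The rule took the F1 libraries tagged as controls from the deposited brain and muscle tables, joined them on the feature ID and paired them by the animal number that opens each title. It gave 24 libraries of 12 animals (3, 5, 8, 9, 19, 24, 25, 45, 49, 52, 72 and 73), of 98 libraries with counts and 99 labelled samples in the series. Animals 9 and 73 are tagged male and the other 10 female. The control brain of animal 64 and the control muscle of animal 23 had no partner with the same tags and entered 1 alternative only.

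The series examined acute heat stress in the California tiger salamander (Ambystoma californiense) and its non-native hybrids. The genotype tags of its animals include F1, CTS and BTS, which the labels do not spell out, and the labels describe the heated animals but not what the controls went through or how old they were. The heated animals were not used here. Further down, the brain to muscle difference in F1 is set against that in control-tagged animals with both tissues tagged CTS (5 animals) and BTS (4 animals).

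Brain and skeletal muscle are both excitable tissues built for different work. Neurons signal by releasing transmitter from vesicles onto receptors of other cells and are wrapped and fed by glia. Muscle fibres are fused cells packed with sarcomeres, arrays of myosin and actin filaments anchored at Z discs, whose shortening is set off by calcium released from the sarcoplasmic reticulum and paid for by phosphocreatine, glycogen and mitochondrial respiration. Many enzymes and channels exist in vertebrates as a brain form and a muscle form, called isozymes where they are enzymes. RNA was measured from whole tissue, so a lower level can come from fewer cells of a type or from less RNA per cell, and these cannot be told apart.

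The libraries held 4989150 to 8844140 counted reads in brain and 3412457 to 14597919 in muscle. The 10 most abundant features took 4.52% to 9.28% of the reads of a brain library and 36.3% to 48.7% of those of a muscle library, and 17385 to 18073 features had a read in brain, against 12929 to 15506 in muscle. Levels are therefore given as scaled CPM, reads per 1000000 counted reads after TMM scaling, a method that sets the bulk of features level between libraries. Its factors were 1.92 to 2.08 in brain and 0.381 to 0.574 in muscle. Scaling by library totals instead moved the median log2 fold change of all features by 1.99 toward brain. For this reason calls were made under 4 scalings (TMM, RLE, library totals and TMM without the 100 most abundant features), and a gene named below as higher or lower kept its call in all 4 unless a loss or a value under another scaling is given beside it. RLE and TMM without the 100 features shifted log2 fold changes by a median of only 0.07 and -0.08. Keeping a call in all 4 is thus a strict test for genes lower in brain and a weak one for genes higher. For lists whose share of calls higher in brain moved by over 10 percentage points under library totals, the counts under both are given, and for genes lower in brain by less than 4-fold the value under library totals is given. Values given as higher or lower in brain at a number ± SE are log2 fold changes of brain over muscle (n = 12 animals). Gene lengths were not used, so levels are compared between tissues and not between genes.

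Of 13416 features tested, 6375 were higher in brain (47.5%) and 4769 were lower in brain (35.5%), by edgeR's quasi-likelihood test with the animal as a block and a Benjamini-Hochberg adjusted p under 0.05. A change of at least 2-fold was reached by 4781 of the features higher in brain and 3179 of those lower. The difference had the same sign in 12 of 12 animals for 4709 features higher in brain and 3211 lower. In all 4 scalings, 6163 features were higher in brain (45.9%) and 1158 lower (8.63%). With library totals alone, 11311 were higher in brain and 1158 lower, so 90.7% of calls were higher in brain there, against 57.2% under TMM. The median log2 fold change of all features was 2.28 under library totals. Counts of list members under each scaling stand beside these values for all features. Of 231 named genes called, 221 had an adjusted p under 0.001, and the largest was 0.0421. A feature with reads in only 1 tissue could enter the test while one low in both could not, so the counts for gene lists describe their tested members alone. No muscle read was counted for 320 of the features tested, and no brain read for 7.

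**Figure D1:**
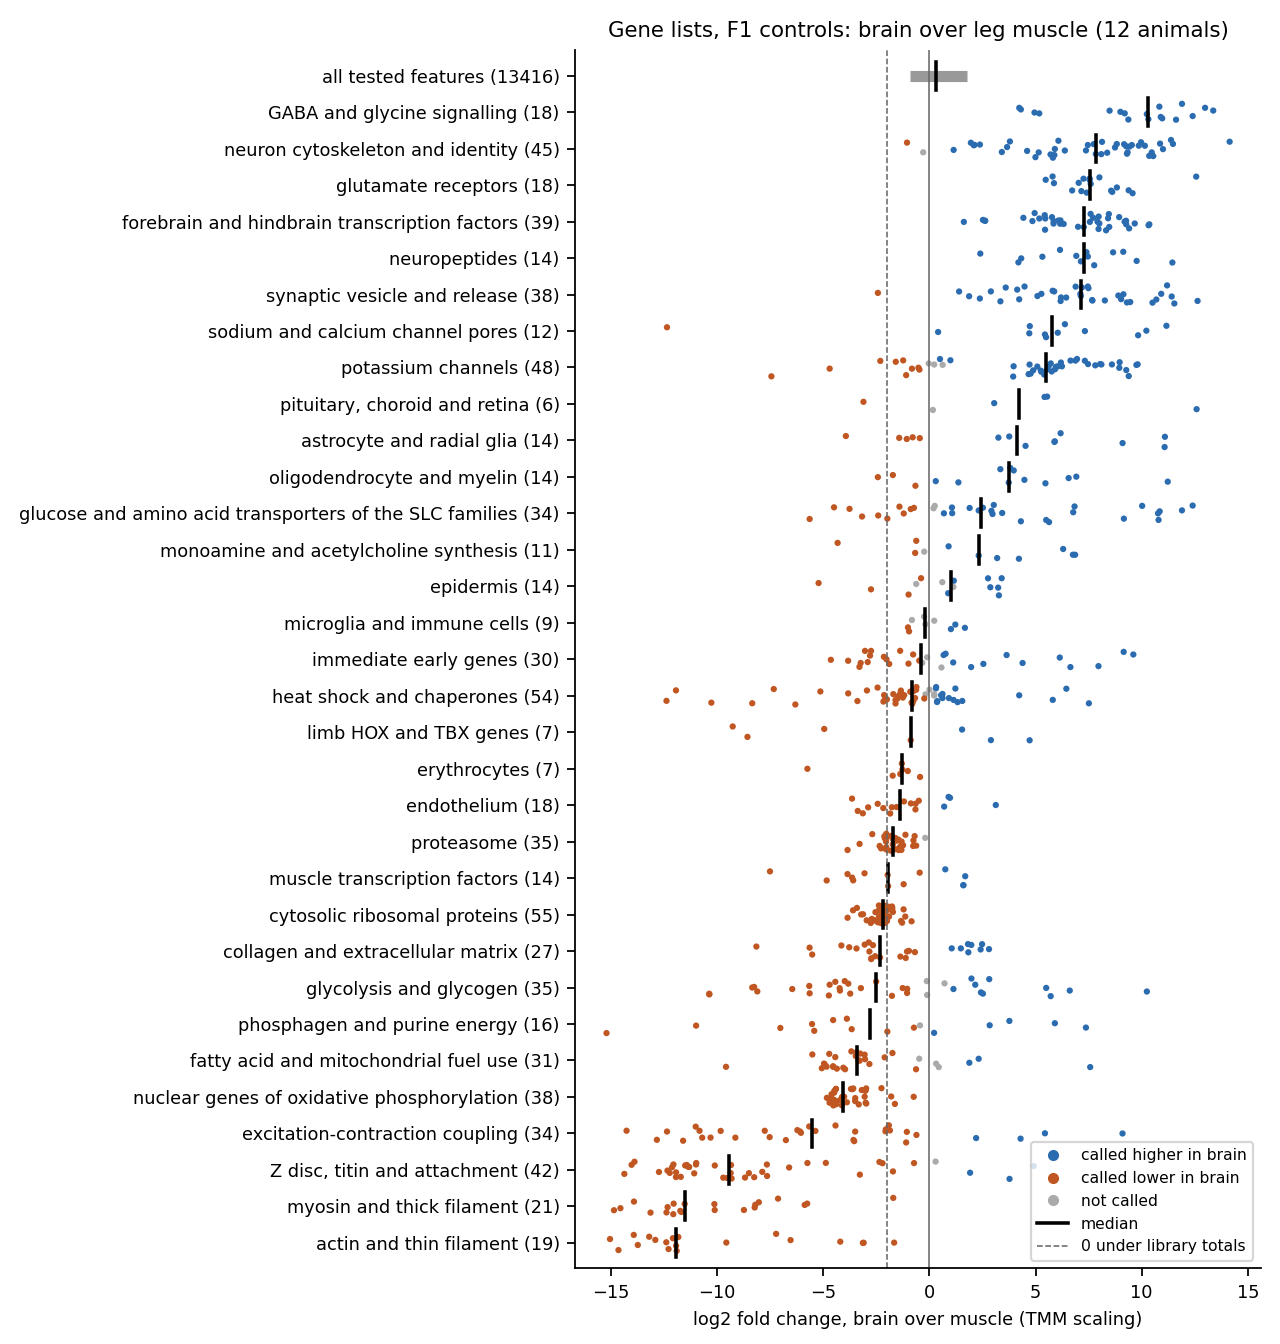
Log2 fold change of brain over muscle in F1 controls for the tested members of each gene list (points), with the list median (features with under 4 reads in a tissue at their bound). The grey bar is the interquartile range of all features tested and the dashed line is where 0 lies when libraries are scaled by their totals: neuronal lists lie far to the right, sarcomere lists far to the left, and ribosomal, proteasome and blood cell lists between the dashed line and 0 or near them.

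Genes of neurons were mostly high in brain and low in muscle. Of 45 tested members of a list of neuronal cytoskeleton and identity genes (49 matched), 43 were higher in brain, 1 was lower and 1 did not pass, with a median log2 fold change of 7.84, beside 0.29 over all features tested. Summed over the list without TMM scaling, these genes made up 23900.3 to 31389 reads per 1000000 (unscaled CPM) in brain libraries, against 349 to 605 in muscle libraries, where 15 to 25 of the 49 members had no read. The feature with the most reads in brain was nptxr, the neuronal pentraxin receptor of synapses, at 2774 to 9427 scaled CPM in brain (median 4509) and 0.308 to 8.36 in muscle (median 1.72), a log2 fold change of 10.92 ± 0.56 (SE, n = 12 animals, adjusted p = 7.71e-12). Its brain and muscle libraries did not overlap, and the brain libraries differed among themselves by up to 3.4-fold.

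The granins CHGA and CHGB, proteins of dense-core secretory vesicles, had medians of 1409 and 1633 scaled CPM in brain. In muscle, CHGB ranged from 0 to 0.308 scaled CPM and CHGA from 0 to 1.22. Their log2 fold changes were 11.47 ± 0.26 and 14.14 ± 0.27. UCHL1, a ubiquitin hydrolase used as a neuronal marker, was the list's member lower in brain under TMM, at -1.06 ± 0.18 with overlapping libraries, and was higher in brain at 0.94 under library totals.

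The machinery of transmitter release followed the same course. Of 38 tested members of the synaptic vesicle list (45 matched), 37 were higher in brain and 1 lower, with a median of 7.12. SYP, the vesicle membrane protein synaptophysin, had 1797 to 3328 scaled CPM in brain (median 2394) and 2.47 to 7.98 in muscle (median 4.28), a log2 fold change of 9.14 ± 0.23. Each brain library lay above each muscle library. The member lower in brain was BIN1, a membrane-bending protein that also shapes the T-tubules of muscle, at 179.7 scaled CPM in brain and 1039.8 in muscle by median, a log2 fold change of -2.43 ± 0.12 that was called in all 4 scalings.

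Receptors and transporters for the fast transmitters were higher in brain, for 18 of 18 tested glutamate receptor genes (19 matched), with a median of 7.55 with bounds for genes with under 4 muscle reads, and for 18 of 18 tested genes of GABA and glycine signalling (20 matched), with a median of 10.28. GAD1, which makes GABA from glutamate, had 334 to 744 scaled CPM in brain and no read in any muscle library, so it was at least 10592-fold higher against a floor of 3 reads over the 12 muscle libraries. SLC6A11, which takes GABA back up, had a log2 fold change of 12.40 ± 0.30. The more abundant feature named GRIA2, an AMPA receptor subunit, gave 534 scaled CPM in brain and 4.50 in muscle by median and a log2 fold change of 6.72 ± 0.35. The NMDA receptor subunit grin1 had 167 to 371 scaled CPM in brain and 2 reads in all over the muscle libraries. Genes of monoamine and acetylcholine metabolism were mixed: of 11 tested (21 matched), 7 were higher in brain, 3 were lower and 1 did not pass, and under library totals 10 were higher and 1 lower. Beside these stand 47.5% higher and 35.5% lower of all features under TMM, and 11311 and 1158 of 13416 under library totals. maob, a monoamine oxidase, was higher in brain at 4.21 ± 0.18, and bche, a cholinesterase, lower at -4.33 ± 0.21.

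Neuropeptide genes were higher in brain in 14 of 14 tested members (15 matched), with a median of 7.26. TRH, the precursor of thyrotropin-releasing hormone, had 254 to 435 scaled CPM in brain (median 316) and 0 to 0.700 in muscle (median 0) and a log2 fold change of 11.45 ± 0.31. ADCYAP1, the precursor of the peptide PACAP, had a log2 fold change of 9.76 ± 0.31. The brain libraries also held transcripts that the pituitary makes. The feature named pro-opiomelanocortin, the precursor of ACTH and related peptides, had 1598 to 6169 scaled CPM in brain (median 2263) and 0 to 0.933 in muscle (median 0), a log2 fold change of 14.19 ± 0.37. PRL, prolactin, had 227 to 1131 scaled CPM in brain, a median of 449.9, against 0 to 0.371 in muscle, a log2 fold change of 12.59 ± 0.29. Both were present in each of the 12 brain libraries, and the highest exceeded the lowest by 3.9-fold for pro-opiomelanocortin and 5.0-fold for PRL. Of 6 tested members of a list for pituitary, choroid plexus and retina (8 matched), 4 were higher in brain, 1 was lower and 1 did not pass. All features tested stood at 47.5% higher and 35.5% lower.

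One abundant brain transcript varied widely between animals. pla2g2e.S, named for a secreted phospholipase A2, had 9.10 to 24132 scaled CPM in brain (median 103) and 0 to 1.39 in muscle (median 0.228) and took 0.00175% to 4.68% of the reads of a brain library. The highest brain library was that of animal 19, with 24132 scaled CPM, followed by animals 25, 72 and 73, while 7 brain libraries were at 149 scaled CPM or below. Each brain library still lay above each muscle library, and the log2 fold change was 11.27 ± 1.18.

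Transcription factors that pattern the brain were higher in brain in 39 of 39 tested cases (48 matched), with a median of 7.27. SOX2, a factor of neural progenitors and glia, had a log2 fold change of 8.00 ± 0.18 for its more abundant feature. bcl11a.L and BCL11B, a related pair of zinc finger factors of forebrain neurons, had log2 fold changes of 1.62 ± 0.13 and 7.97 ± 0.49, with muscle medians of 60.4 and 0.271 scaled CPM.

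Glial genes were mostly higher in brain, with exceptions. Of all features tested, 47.5% were higher in brain and 35.5% lower under TMM. Under library totals 11311 of 13416 were higher and 1158 lower, and the counts of both glial lists under library totals lie near that share. Of 14 tested astrocyte and radial glia genes (19 matched), 9 were higher in brain and 5 lower, with a median of 4.14, against 13 higher and 1 lower under library totals. glul, glutamine synthetase, which recycles glutamate in astrocytes, had 987 to 1693 scaled CPM in brain (median 1244) and 10.9 to 29.6 in muscle (median 15.2) and a log2 fold change of 6.18 ± 0.17. NDRG2, another astrocyte marker, was lower in brain under TMM at -1.07 ± 0.10 and higher at 0.93 under library totals. aldh1l1.L, a folate enzyme used to mark astrocytes, was lower in brain in all 4 scalings, at -3.94 ± 0.17. Of 14 tested oligodendrocyte and myelin genes (16 matched), 11 were higher in brain and 3 lower, with a median of 3.77, against 12 higher and 0 lower under library totals. MBP, myelin basic protein, had 404 to 3094 scaled CPM in brain (median 1919) and 43.6 to 80.5 in muscle (median 69.3), a log2 fold change of 4.47 ± 0.29. Brain MBP was 404 to 875 scaled CPM in animals 3, 9, 19, 25 and 73 and 1862 to 3094 in the other 7. GPM6A, a membrane glycoprotein of neurons, had a log2 fold change of 11.23 ± 0.39, and its relative GPM6B 3.81 ± 0.15. PMP22, a protein of peripheral nerve myelin, had 2.25 to 24.5 scaled CPM in brain (median 7.12) and 20.3 to 60.5 in muscle (median 42.2), with overlapping libraries and a log2 fold change of -2.43 ± 0.34, which was -0.44 and did not pass under library totals. OLIG2, the oligodendrocyte lineage factor, had overlapping libraries, was lower in brain under TMM at -0.66 ± 0.15 and higher at 1.34 under library totals.

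Sarcomere genes were low in brain and abundant in muscle. Of 21 tested myosin and thick filament genes (23 matched), 21 were lower in brain, with a median log2 fold change of -11.5. Of 19 tested actin and thin filament genes (20 matched), 19 were lower in brain, with a median of -11.9. The summed thick filament list made up 199 to 376 unscaled CPM in brain libraries and 38466 to 49372 in muscle, and the thin filament list 412 to 641 in brain and 60064 to 70502 in muscle. MYLPF, the phosphorylatable light chain of fast myosin, had 0.145 to 16.0 scaled CPM in brain (median 1.41) and 29264 to 73619 in muscle (median 46902), a log2 fold change of -14.87 ± 0.58. Troponin T and I of fast fibres, tnnt3.S and tnni2.S, which hold the thin filament off until calcium binds, had log2 fold changes of -15.05 ± 0.64 and -14.66 ± 0.55. Troponin C, tnnc2, the calcium sensor of that complex, had a log2 fold change of -11.94 ± 0.28 for its more abundant feature. MYH7, the heavy chain named for slow and cardiac fibres, had 1.34 to 14.0 scaled CPM in brain (median 2.86) and 11617 to 31489.7 in muscle (median 17902) and a log2 fold change of -12.34 ± 0.45. Heavy chain genes resemble each other in sequence. The counting may have divided or dropped reads that match several of them, so single members are uncertain.

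The brain library of animal 45 held more reads of several muscle genes than the other brains. It was the highest brain library for 9 of 21 tested thick filament genes and 9 of 19 tested thin filament genes, against at most 3 genes of either list for any other brain. ckm.L, muscle creatine kinase, had 52.6 scaled CPM there and 0.698 to 11.0 in the other 11 brains, and tnnt3.S had 18.3 there and 0.218 to 3.16 in the others. Without animal 45 the log2 fold changes were -15.49 ± 0.45 for ckm.L, -15.40 ± 0.40 for tnnt3.S, -15.16 ± 0.40 for MYLPF and -14.51 ± 0.52 for atp2a1.S. The part of carried-over muscle RNA in these brain levels was not tested.

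Z disc and attachment genes were lower in brain in 38 of 42 tested cases (59 matched), higher in 3, and 1 did not pass, with a median of -9.45. DES, desmin, the muscle intermediate filament, had 1.16 to 8.54 scaled CPM in brain (median 3.05) and 10929.8 to 25665 in muscle (median 15673) for its more abundant feature and a log2 fold change of -12.35 ± 0.32. KLHL40, a protein that stabilises thin filament parts, had a log2 fold change of -14.38 ± 0.42, and TRIM54, a microtubule-associated ubiquitin ligase of muscle, -11.00 ± 0.21. Both features named dtna, dystrobrevin alpha, were higher in brain, at 4.91 ± 0.30 and 3.77 ± 0.40.

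Genes that couple excitation to contraction were lower in brain in 30 of 34 tested cases (40 matched) and higher in 4, with a median of -5.52, and under library totals 22 were lower and 7 higher. atp2a1.S, the calcium pump of the sarcoplasmic reticulum in fast fibres, had 0.145 to 15.4 scaled CPM in brain (median 2.16) and 32599.5 to 70386 in muscle (median 44627), and SRL, sarcalumenin, a calcium-binding protein of the same store, had 0.653 to 5.10 scaled CPM in brain (median 1.12) and 5759 to 15144 in muscle (median 9636). Their log2 fold changes were -14.28 ± 0.59 and -12.85 ± 0.37, and the libraries of the tissues did not overlap. CHRNE, the adult subunit of the acetylcholine receptor at the nerve-muscle junction, had a log2 fold change of -10.84 ± 0.25. CACNA1S, the voltage sensor of the muscle T-tubule, had 0 to 0.306 scaled CPM in brain (median 0.0682) and 360.4 to 829.7 in muscle (median 508) and a log2 fold change of -12.37 ± 0.30. Its relative CACNA1C and the calcium release channel RYR2 were among the members higher in brain, at 5.44 ± 0.22 and 9.10 ± 0.37.

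Genes of voltage-gated channel pores were mostly higher in brain. Of 12 tested sodium and calcium channel pore genes (15 matched), 11 were higher in brain and 1, CACNA1S, was lower, with a median of 5.77. The sodium channel SCN8A had 34.0 to 80.4 scaled CPM in brain and no muscle read, at least 1192-fold higher against the same floor, and 1 of the features named scn1a, with 29.6 to 63.0 in brain, was at least 911-fold higher. Another feature named scn1a had 66.6 to 159 scaled CPM in brain and 3 muscle reads. Of 48 tested potassium channel genes (65 matched), 36 were higher in brain, 9 lower and 3 did not pass, with a median of 5.47, against 43 higher and 2 lower under library totals. Over all features, 47.5% were higher and 35.5% lower under TMM, and 11311 of 13416 higher and 1158 lower under library totals. The potassium channel partners KCNAB2 and kcnip1.L had log2 fold changes of 3.94 ± 0.15 and 5.08 ± 0.12, and the modulatory subunits KCNS3 and KCNS1, lower in brain, -4.70 ± 0.21 and -7.45 ± 0.34.

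The transcription factor lists of muscle and limb held members higher and members lower in brain. Among all features tested, 47.5% were higher and 35.5% lower under TMM, and 11311 of 13416 were higher and 1158 lower under library totals. Of 14 tested muscle transcription factor genes (20 matched), 10 were lower in brain and 4 higher, with a median of -1.96 that was 0.03 under library totals, where 6 were higher and 6 lower. SIX4, a homeobox factor of muscle precursors, had a log2 fold change of -4.84 ± 0.13 and MEF2C, a factor of muscle and of neurons, -3.59 ± 0.17. mef2d, with overlapping libraries, was lower in brain at -0.46 ± 0.13 under TMM and higher at 1.53 under library totals. Of 7 tested limb HOX and TBX genes (17 matched), 4 were lower in brain and 3 higher, and under library totals 3 were lower and 4 higher. HoxA9, a posterior and limb patterning factor, had 0 to 0.175 scaled CPM in brain (median 0) and 21.5 to 40.0 in muscle (median 28.6) and a log2 fold change of -9.27 ± 0.33.

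Isozymes showed the tissue difference within several enzyme families. Types were assigned from what is known in mammals, and every tested member is counted whatever it did. Brain type also takes in forms known from other tissues, such as PFKP of platelets, cpt1a of liver and atp2a2 of most cells. It therefore means the form set against that of muscle, and not a form particular to brain. No feature of the other type was tested for CKMT1B, PGAM2, LDHB, HK2, ampd1, cpt1a, RYR2, cox6a1, cox7a2.S, the sodium pump or the sodium channels. Of 34 tested features of brain type, 25 were higher in brain, 6 were lower and 3 did not pass, and of 21 tested features of muscle type, 18 were lower in brain and 3 higher. In all 4 scalings, 25 of the brain type were higher in brain and 5 lower, and 15 of the muscle type were lower and 2 higher. Over all features tested, 47.5% were higher and 35.5% lower under TMM, and 45.9% and 8.63% in all 4 scalings.

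Creatine kinase, which shuttles phosphate between ATP and creatine, differed in both forms. ckm.L had 0.698 to 52.6 scaled CPM in brain (median 3.55) and 102096 to 257481 in muscle (median 131895), a log2 fold change of -15.22 ± 0.64 (adjusted p = 3.37e-13), and took 7.20% of muscle reads on average, against 0.00165% of brain reads. The more abundant feature named CKB, the brain form, averaged 475 ± 114 scaled CPM in brain and 69.4 ± 27.7 in muscle (SD, n = 12 each), a log2 fold change of 2.84 ± 0.20. A second feature named CKB, at under 10 scaled CPM on average in both tissues, did not pass (-0.45, adjusted p = 0.501) and was 1.55 under library totals. CKMT1B, a mitochondrial creatine kinase, had a log2 fold change of 5.91 ± 0.34.

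Enzymes of sugar breakdown split the same way. ENO2, the enolase of neurons, had 175 to 492.98 scaled CPM in brain (median 380.4) and 0 to 1.31 in muscle (median 0.0757), a log2 fold change of 10.24 ± 0.34, while its muscle partner eno3.L had 28.3 to 82.5 scaled CPM in brain (median 61.1) and 10576 to 21331 in muscle (median 16018), a log2 fold change of -8.11 ± 0.19. Glycogen phosphorylase, which frees glucose units from glycogen, was higher in brain for both features of its brain form PYGB (5.71 ± 0.12 and 6.61 ± 0.23) and lower for its muscle form PYGM (-4.74 ± 0.14). For phosphofructokinase, the platelet form PFKP was higher in brain at 2.42 ± 0.19 and the muscle form PFKM lower at -8.26 ± 0.15. The catalytic subunits of phosphorylase kinase, PHKG2 and PHKG1, had log2 fold changes of 1.13 ± 0.11 and -10.37 ± 0.28. The muscle forms PGAM2 and ampd1, a phosphoglycerate mutase and an AMP deaminase, had log2 fold changes of -8.35 ± 0.24 and -11.00 ± 0.35.

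**Figure D2:**
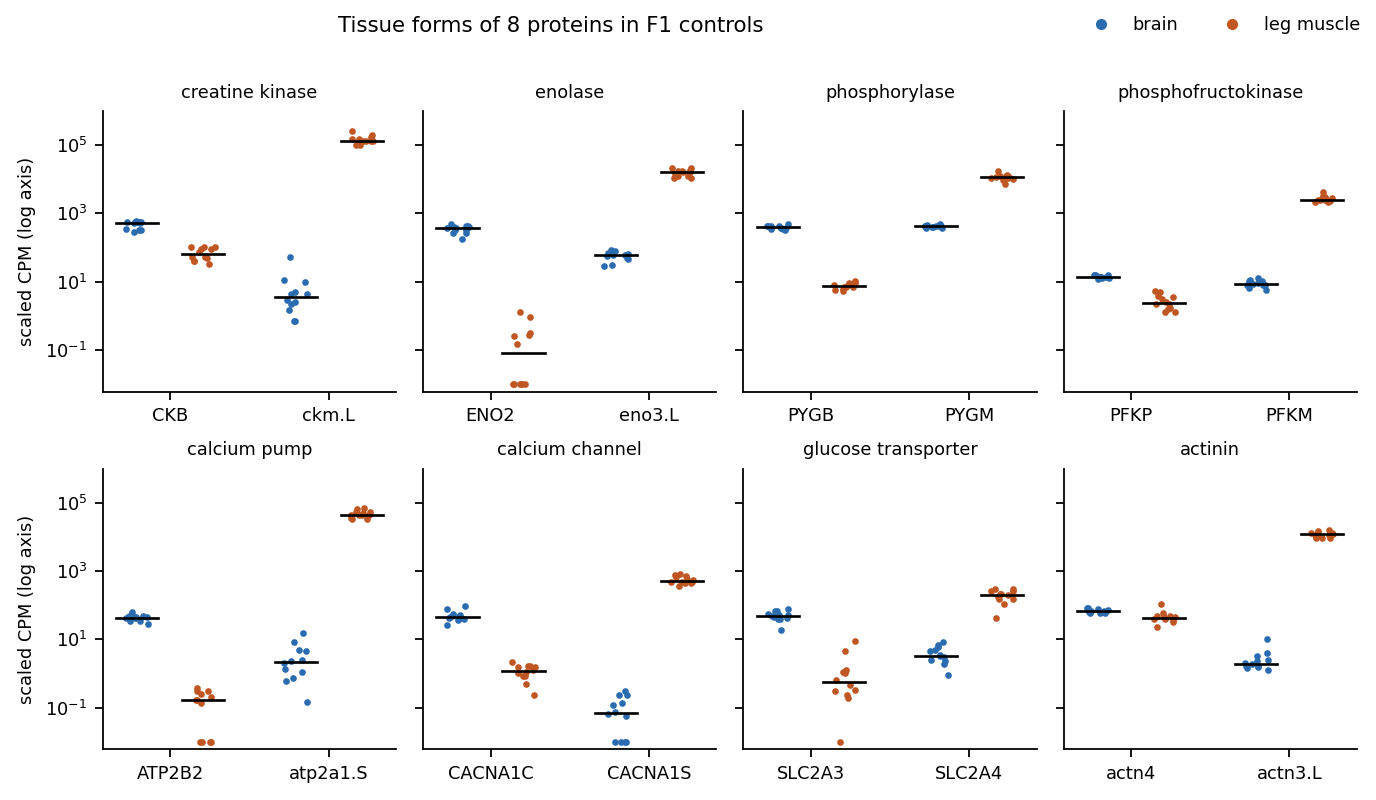
Scaled CPM (log axis, values of 0 drawn at 0.01) of 8 pairs of brain and muscle forms in each F1 control library, brain left and muscle right, with the median as a line. In each pair drawn, the form assigned to brain is higher in brain and the muscle form lower in brain. The features run from ckm.L at medians of 3.55 scaled CPM in brain and 131895 in muscle to actn4, whose tissues overlap. The pairs are a choice: the 6 features of brain type lower in brain and the 3 of muscle type higher in brain are not drawn. ATP2B2 and atp2a1.S are calcium pumps of different membranes, and atp2a2, not drawn, was lower in brain at -3.50 ± 0.12.

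Transport and scaffold families followed this pattern in part. The glucose transporters SLC2A1 and SLC2A3, of barrier cells and of neurons, were higher in brain at 2.52 ± 0.11 and 5.50 ± 0.43, and the insulin-responsive SLC2A4 lower at -5.65 ± 0.29. The plasma membrane calcium pump ATP2B2 was higher in brain at 7.95 ± 0.24. Of the alpha-actinins, which crosslink actin, ACTN2 and actn3.L of the Z disc were lower in brain at -13.74 ± 0.53 and -12.30 ± 0.35, actn4 was higher at 0.64 ± 0.13 with overlapping libraries, and ACTN1 did not pass (-0.07, adjusted p = 0.611, and 1.93 under library totals). The spectrins of the membrane skeleton split likewise, with SPTAN1 at 2.15 ± 0.15 and sptb at -5.75 ± 0.17. The fatty acid binding proteins FABP7, of radial glia, and FABP3, of muscle and heart, had log2 fold changes of 3.76 ± 0.29 and -3.98 ± 0.11. For the adenine nucleotide carrier, Slc25a4 was lower in brain at -7.62 ± 0.20 and SLC25A5 did not pass (0.28, adjusted p = 0.0897).

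Of the 55 tested features, 9 went against their type, 6 of brain type that were lower in brain and 3 of muscle type that were higher. Among them, LDHB, HK2, cox6a1 and cox7a2.S had no tested feature of the other type in their family. LDHB, the lactate dehydrogenase form of heart and brain in mammals, had 11.0 to 31.3 scaled CPM in brain (median 19.7) and 1215 to 3840.0 in muscle (median 1551), a log2 fold change of -6.47 ± 0.25. Also lower in brain were EEF1A1, an elongation factor that brings tRNAs to the ribosome, at -2.28 ± 0.12, atp2a2, the calcium pump of slow fibres and of most other cells, at -3.50 ± 0.12, MEF2C, given above, and the cytochrome oxidase subunits cox6a1 at -3.03 ± 0.23 and cox7a2.S at -1.81 ± 0.23, the last of which had overlapping libraries and was 0.19 under library totals. HK2, the hexokinase of mammalian muscle, was higher in brain at 2.82 ± 0.37. The calcium-dependent kinase forms assigned to muscle, CAMK2D and camk2g, were higher in brain at 3.35 ± 0.11 and 0.26 ± 0.09, the second with overlapping libraries and an adjusted p of 0.0141. The call for camk2g was lost, at 0.18, with TMM factors computed without the 100 most abundant features. The brain forms of that kinase, Camk2a and camk2b, were higher at 2.09 ± 0.24 for the more abundant feature, whose libraries overlapped, and at 1.14 ± 0.11. EEF1A2, the elongation factor of muscle and neurons, was lower in brain at -2.07 ± 0.11 under TMM and did not pass under library totals (-0.07).

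Lists of energy pathways held more members lower than higher in brain, by a margin that depended on the scaling. Of all features tested, 47.5% were higher in brain and 35.5% lower under TMM. Under library totals, 11311 of all 13416 were higher and 1158 lower. Of 35 tested glycolysis and glycogen genes (39 matched), 22 were lower in brain, 10 higher and 3 did not pass, with a median of -2.51, and under library totals 18 were lower and 16 higher, with a median of -0.51. Of 16 tested genes of phosphagen and purine energy (17 matched), 10 were lower, 5 higher and 1 did not pass, against 8 lower and 7 higher under library totals. Of 31 tested genes of fatty acid and mitochondrial fuel use (33 matched), 25 were lower, 3 higher and 3 did not pass, with a median of -3.43, against 22 lower and 7 higher, with a median of -1.44, under library totals. idh2.L, an isocitrate dehydrogenase of mitochondria, had a log2 fold change of -5.52 ± 0.17, and acadvl, which starts the oxidation of long fatty acids, -4.94 ± 0.12. Higher in brain were cpt1a, the fatty acid gate of liver and other tissues, at 2.32 ± 0.11, and ACSL6, a fatty acid activating enzyme of neurons, at 7.57 ± 0.47.

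Nuclear genes of oxidative phosphorylation were lower in brain in 38 of 38 tested cases (45 matched), with a median of -4.06, and 34 of the 38 were lower in all 4 scalings. Atp5b and atp5a1, the catalytic core of ATP synthase, had log2 fold changes of -4.83 ± 0.18 and -4.12 ± 0.14, and NDUFS1, a complex I subunit, 6.13 to 9.42 scaled CPM in brain (median 7.93) and 146 to 239 in muscle (median 171), a log2 fold change of -4.53 ± 0.12. The libraries differed among themselves within a tissue. The list's summed level was 2129 to 3114 unscaled CPM in the brains of animals 3, 9, 25 and 52 and 3781 to 4679.6 in the other 8, and 9928 to 14177 in the muscles of animals 24, 25, 52 and 72 and 17589 to 21947 in the other 8.

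Cytosolic ribosomal protein genes marked the same libraries. Their summed level was 7077 to 11320.3 unscaled CPM in the brains of animals 3, 9, 25 and 52, against 16115 to 18953 in the other brains, and 6888 to 11476 in the muscles of animals 24, 25, 52 and 72, against 16124 to 20709 in the other muscles. These libraries hold different animals in the tissues apart from 25 and 52. Of 55 tested ribosomal protein genes (64 matched), 55 were lower in brain under TMM, with a median of -2.18, whereas under library totals 5 were higher and 12 lower, with a median of -0.19. RPL4, a large subunit protein, had a log2 fold change of -2.24 ± 0.11 under TMM and -0.24 under library totals, where it did not pass, and rps2, of the small subunit, -2.72 ± 0.16 and -0.72. Of 35 tested proteasome genes (38 matched), 34 were lower in brain under TMM and 1 did not pass, with a median of -1.73. Under library totals 17 were higher and 3 lower, with a median of 0.27. Over all 13416 features tested, 11311 were higher and 1158 lower under library totals, with a median of 2.28. PSMC1, an ATPase of the proteasome's regulatory particle, had a log2 fold change of -1.47 ± 0.11 under TMM and 0.53 under library totals.

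Leaving out the 6 animals with a summed ribosomal protein level under 12000 unscaled CPM in either tissue left 6 animals and the counts nearly as they were. Of 55 ribosomal protein genes, 55 were lower in brain, with a median of -2.26, and of 38 respiratory genes 38, with a median of -4.10. Of 35 proteasome genes, 33 were lower, with a median of -1.72.

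Heat shock and chaperone genes in these control animals included members higher and members lower in brain. Of 54 tested members (65 matched), 16 were higher in brain, 34 lower and 4 did not pass, with a median of -0.83, while in all 4 scalings 15 were higher and 11 lower. Under library totals 39 were higher and 11 lower, with a median of 1.17. Without the 6 animals with a low ribosomal share, 15 were higher and 31 lower. The shares over all features tested were 47.5% higher and 35.5% lower, and 45.9% and 8.63% in all 4 scalings. With library totals, 11311 of all 13416 features were higher and 1158 lower.

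The 4 tested features named HSPB7, hspb1.L, hspb6 and HSPB8, small heat shock proteins that keep unfolding proteins soluble, were lower in brain. HSPB7 had 2.98 to 13.5 scaled CPM in brain (median 4.57) and 15814 to 26553 in muscle (median 19852), a log2 fold change of -11.95 ± 0.31. hspb1.L had 0.301 to 2.47 scaled CPM in brain (median 1.40) and 968 to 3088 in muscle (median 1674), a log2 fold change of -10.28 ± 0.23, hspb6 had a log2 fold change of -8.35 ± 0.22 and HSPB8 -6.32 ± 0.19. BAG3, which hands HSPB8 clients to HSP70, had a log2 fold change of -3.83 ± 0.12, and bag2.L, another HSP70 regulator, -5.14 ± 0.23. UNC45B, the myosin chaperone of striated muscle, had a log2 fold change of -12.39 ± 0.30, and DNAJB4, an HSP40 co-chaperone, -7.34 ± 0.20. These genes were lower in brain in all 4 scalings.

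Other members of the list were higher in brain. DNAJC6, auxilin, which uncoats clathrin vesicles with HSP70, had a log2 fold change of 7.51 ± 0.23, and DNAJC5, the cysteine string protein of synaptic vesicles, 4.23 ± 0.21. hsp90aa1.1, the stress-inducible alpha form of cytosolic HSP90, had 21.4 to 36.0 scaled CPM in brain (median 28.2) and 0 to 1.39 in muscle (median 0.288), a log2 fold change of 5.81 ± 0.26, and each brain library lay above each muscle library. HSPA12A, a distant HSP70 relative, had a log2 fold change of 6.45 ± 0.33. UNC45A, the general partner of UNC45B, had a log2 fold change of 1.22 ± 0.11, and FKBP4, an HSP90 co-chaperone of steroid receptors, 1.32 ± 0.09, whereas its relative FKBP5 was lower in brain at -3.40 ± 0.15. HSF1, the heat shock transcription factor, was higher in brain at 0.31 ± 0.10 and CIRBP, a cold-inducible RNA-binding protein, at 0.36 ± 0.12 (adjusted p = 0.00969), both with overlapping libraries. hspa5, the HSP70 of the endoplasmic reticulum, did not pass (0.22, adjusted p = 0.0637).

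The calls of several chaperones changed side or were lost with the scaling. HSP90AB1, the constitutive cytosolic HSP90, had 1502 to 2495 scaled CPM in brain (median 1639) and 4673 to 9701 in muscle (median 5494), lower in brain at -1.71 ± 0.11 under TMM and higher at 0.29 under library totals. STIP1, which joins HSP70 to HSP90, was lower at -1.60 ± 0.10 under TMM and higher at 0.40 under library totals, and DNAJA1, a further HSP40, with overlapping libraries, lower at -0.81 ± 0.10 and higher at 1.19. The mitochondrial chaperonin HSPD1 was lower under TMM at -2.01 ± 0.13 and stood at -0.01 under library totals.

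**Figure D3:**
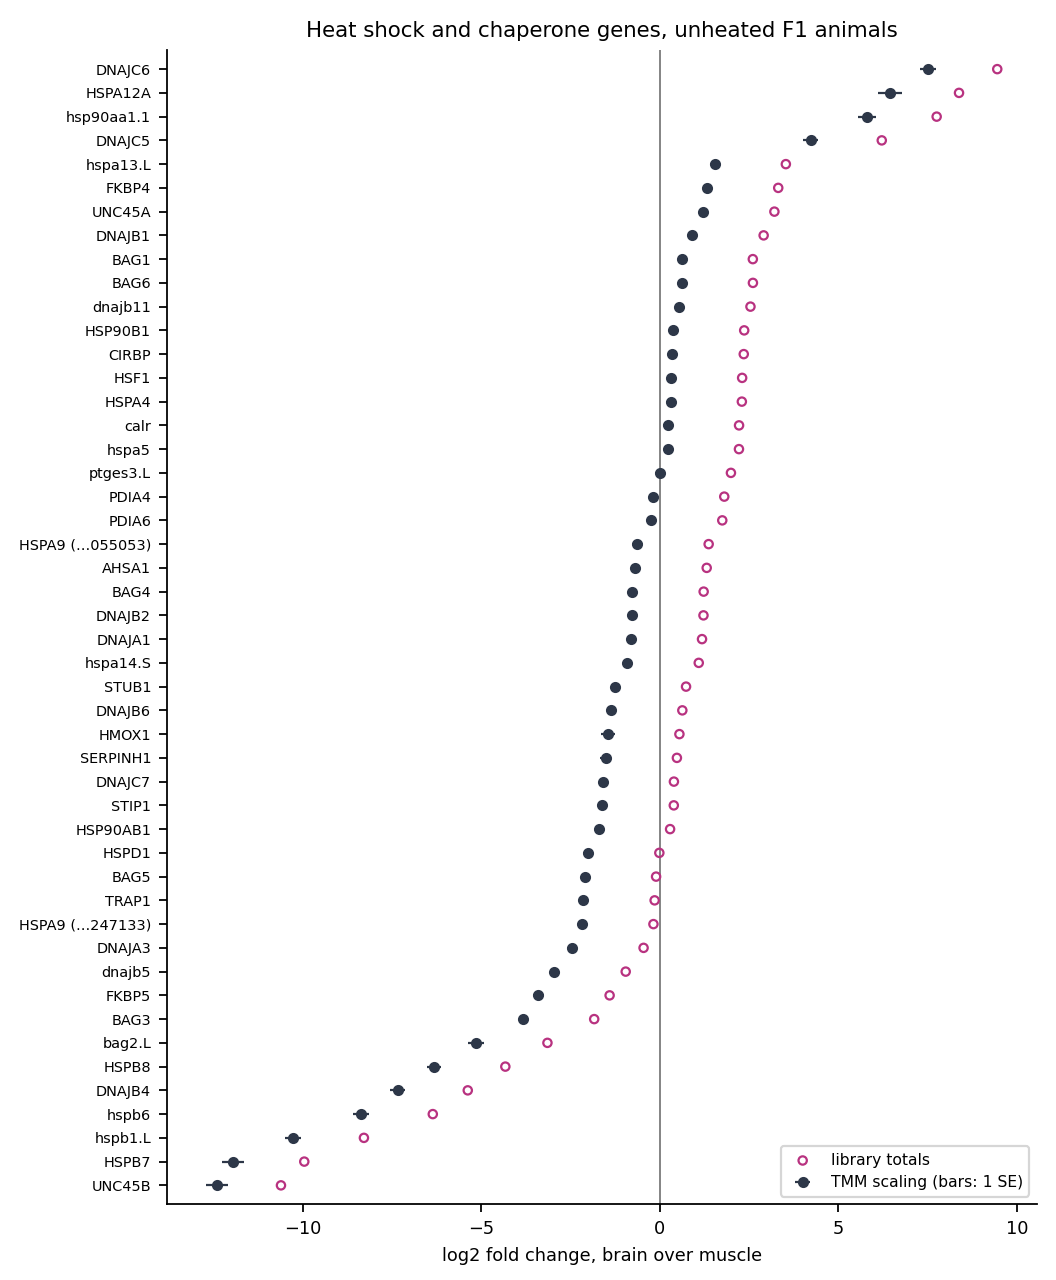
Log2 fold change of brain over muscle for 48 heat shock and chaperone features in F1 controls, under TMM scaling (filled, with 1 SE either side) and under library totals (open). HSPB7, hspb1.L, hspb6, HSPB8 and UNC45B lie far below 0 under both, DNAJC6, HSPA12A and hsp90aa1.1 far above, and HSP90AB1, STIP1 and DNAJA1 change side between the scalings.

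Immediate early genes, which respond to activity and stress within minutes, also included both. Of 30 tested (39 matched), 12 were higher in brain, 15 lower and 3 did not pass. In all 4 scalings 12 were higher and 8 lower, while under library totals 19 were higher and 8 lower. Among all features tested, 47.5% were higher and 35.5% lower, and in all 4 scalings 45.9% and 8.63%. With library totals, 11311 of the 13416 features were higher and 1158 lower. The members named here are a choice from those that moved. NPAS4 had 22.5 to 61.4 scaled CPM in brain and EGR4 15.9 to 48.0, each with 1 read in all over the muscle libraries. arc, a cytoskeletal protein of active synapses, had 33.9 to 131 scaled CPM in brain (median 59.2) and 0 to 2.13 in muscle (median 0.158) and a log2 fold change of 7.96 ± 0.31, and HOMER1, a synaptic scaffold, 6.64 ± 0.30. Lower in brain were CEBPD and KLF2, transcription factors of inflammation and of vessels, at -3.83 ± 0.22 and -3.24 ± 0.20, DUSP1, a phosphatase that ends MAP kinase signals, at -3.30 ± 0.19, and NR4A1, an orphan receptor of exercise and stress, at -2.80 ± 0.21. Within the NR4A family NR4A2 was higher in brain, at 4.39 ± 0.35. JUN, whose libraries overlapped, was lower in brain under TMM at -0.99 ± 0.18 and higher at 1.01 under library totals.

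Markers of other cells were present in both tissues. List counts here and in the next paragraph stand beside 47.5% of all features tested higher in brain and 35.5% lower under TMM. Those under library totals stand beside 11311 of 13416 features higher and 1158 lower. Of 7 tested erythrocyte genes (9 matched), 7 were lower in brain under TMM, with a median of -1.30, but under library totals 5 were higher and 1 lower. Their summed share was 136 to 255 unscaled CPM in brain and 193 to 367 in muscle. SLC4A1, the anion exchanger of red cells, was lower at -1.30 ± 0.15 under TMM and higher at 0.69 under library totals. Of 18 tested endothelial genes (18 matched), 14 were lower in brain and 4 higher under TMM, and in all 4 scalings 4 were lower and 4 higher, while under library totals 4 were lower and 10 higher. CLDN5, the tight junction protein of the blood-brain barrier, was higher in brain at 3.12 ± 0.21, and PECAM1, a junction protein of endothelium in general, lower at -3.38 ± 0.18.

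Of 27 tested collagen and matrix genes (35 matched), 19 were lower in brain and 8 higher, with a median of -2.33, and under library totals 12 were lower and 13 higher, with a median of -0.34. COL3A1, a fibrillar collagen, had a log2 fold change of -3.44 ± 0.19 and FBN1, fibrillin, -4.15 ± 0.16, while tnc, tenascin C, was higher in brain at 2.80 ± 0.16. Of 14 tested epidermal genes (23 matched), 7 were higher in brain, 4 lower and 3 did not pass, against 12 higher and 2 lower under library totals, and the summed share in muscle was 785 unscaled CPM in animal 25, against 187 to 333 in the other 11. Of 9 tested microglia and immune genes (13 matched), 3 were higher in brain, 2 lower and 4 did not pass, against 9 higher and 0 lower under library totals, and the summed muscle share was 333 unscaled CPM in animal 3, against 38.6 to 98.9 in the others. CD74, the invariant chain of antigen presentation, had 413 scaled CPM in that muscle and 42.1 to 177 in the other 11. Its libraries overlapped between the tissues, and it was lower in brain at -0.96 ± 0.27 under TMM and higher at 1.05 under library totals. CSF1R, the growth factor receptor of macrophages and microglia, was higher in brain at 1.01 ± 0.17 with overlapping libraries.

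The brain to muscle difference was next compared between F1 and the other genotypes, over 15872 features in a fit that held the 12 F1, 5 CTS and 4 BTS control animals with both tissues. The log2 fold change of brain over muscle was higher in F1 than in CTS for 267 features (1.68%) and lower for 177 (1.12%), and higher in F1 than in BTS for 82 (0.517%) and lower for 206 (1.3%). Both comparisons share the F1 libraries. An unadjusted p under 0.05 was reached by 2744 features against CTS and 2282 against BTS. DESeq2 gave 732 calls against CTS and 651 against BTS, in place of 444 and 288, and without the animal as a block 984 were called against CTS. The counts moved with single animals, and the parental animals are few. Without CTS 63 or CTS 77 the calls against CTS numbered 273 and 275, and against BTS they numbered 92 without BTS 60, 176 without BTS 68, 77 without BTS 71 and 447 without BTS 74. Leaving out an F1 animal gave 316 (F1 73) to 576 (F1 19) against CTS and 208 (F1 52) to 390 (F1 19) against BTS. By tag, 10 of the 12 F1, 4 of the 5 CTS and 2 of the 4 BTS animals were female, and the part of sex was not tested.

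The F1 and CTS muscles lay apart for NPDC1, DNAJC15, RAB39B and SEZ6L, which are a choice from the named features. Some other named features differed in brain. LOC102361187 and LOC109285436 averaged 13.1 and 11.4 scaled CPM in F1 brains, against 0 and 0.0514 in CTS brains, while their muscles overlapped. ZNF300, whose muscles also lay apart, had 2.99 to 6.75 scaled CPM in F1 brains and 0.643 to 1.40 in CTS brains. NPDC1, a neural proliferation gene, had 100.4 to 160.2 (median 118) scaled CPM in F1 brains and 304 to 578 (median 398) in F1 muscles. In CTS it had 76.5, 93.6, 96.3, 103 and 105 in brains and 22.3, 25.6, 29.2, 38.1 and 58.8 in muscles. Each F1 muscle lay above each CTS muscle, the brains lay closer together, and the difference of the log2 fold changes, F1 minus CTS, was -3.26 ± 0.27 (adjusted p = 2.33e-07). DNAJC15, a mitochondrial HSP40, had 11.0 to 28.6 (median 17.95) scaled CPM in F1 muscles and 0.898, 1.42, 1.73, 1.88 and 2.86 in CTS muscles, a difference of -2.97 ± 0.30. GALNT5, KIFAP3 and ZNF300 completed the 5 named features lower in F1, at -4.05 ± 0.50, -1.96 ± 0.25 and -2.70 ± 0.36.

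RAB39B, a neuronal vesicle GTPase, and SEZ6L, a neuronal membrane protein, differed the other way. RAB39B had 188 to 288 (median 213) scaled CPM in F1 brains and 3.46 to 13.6 (median 6.12) in F1 muscles, against 195, 217, 224, 225 and 239 in CTS brains and 32.1, 32.9, 36.2, 44.1 and 46.8 in CTS muscles, a difference of 2.54 ± 0.30. SEZ6L had 0 to 4.18 (median 0.464) in F1 muscles and 24.2, 25.8, 27.4, 28.3 and 76.1 in CTS muscles, a difference of 5.38 ± 0.65. For both genes the F1 and CTS brains overlapped and the muscles did not.

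**Figure D4:**
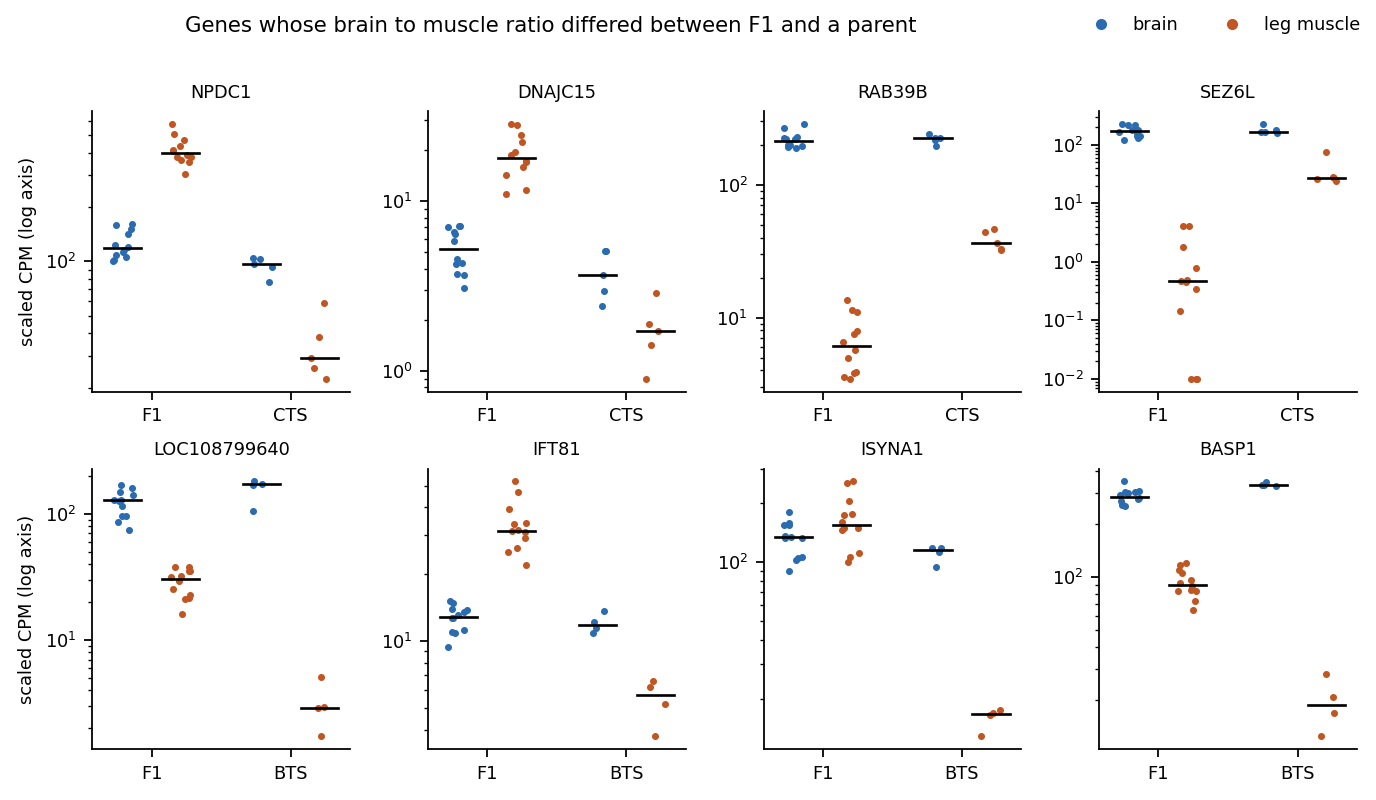
Scaled CPM (log axis, values of 0 drawn at 0.01) in brain and muscle of control-tagged animals: NPDC1, DNAJC15, RAB39B and SEZ6L in F1 and CTS, and LOC108799640, IFT81, ISYNA1 and BASP1 in F1 and BTS. Points are libraries and lines are medians. For these 8 features F1 and parental muscles lie apart while the brains overlap or lie close. They are a choice, and some named features not drawn differed in brain, such as LOC109285436 against CTS and LOC102447962 against BTS.

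Against BTS, the 4 features described in this paragraph with their muscle levels were higher in F1 muscles than in BTS muscles. Among the named features left out, LOC102447962 and LOC102396279 averaged 8.24 and 10.6 scaled CPM in F1 brains, against 2.89 and 4.77 in BTS brains. ISYNA1, which makes inositol phosphate from glucose phosphate, had 101 to 259 (median 155) scaled CPM in F1 muscles and 12.8, 16.4, 16.9 and 17.5 in BTS muscles, while brains had 90.0 to 180.2 (median 134) in F1 and 94.4, 113, 117 and 118 in BTS, a difference of -3.10 ± 0.34 (adjusted p = 1.12e-05). BASP1, a membrane protein of growing axons, had 65.0 to 121 (median 90.5) in F1 muscles and 12.4, 16.9, 20.7 and 28.0 in BTS muscles, a difference of -2.51 ± 0.28. IFT81, a transport protein of cilia, had 22.0 to 52.2 (median 31.3) in F1 muscles and 3.72, 5.19, 6.21 and 6.61 in BTS muscles, a difference of -2.53 ± 0.26. The feature LOC108799640, with no role given here, had 16.1 to 38.3 (median 30.5) in F1 muscles and 1.72, 2.88, 2.94 and 5.06 in BTS muscles, a difference of -3.54 ± 0.29.

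Some of the listed genes differed between genotypes. Of 31 tested genes of fatty acid and mitochondrial fuel use, 7 had a lower log2 fold change in F1 than in CTS and none a higher one, beside 1.12% and 1.68% of all features. They were PDK2, a kinase that turns pyruvate away from the citric acid cycle (-1.74 ± 0.24), ACADM, for medium-chain fatty acids (-1.64 ± 0.28), FABP3 (-1.19 ± 0.20), PPARGC1A, a coactivator of mitochondrial genes (-0.99 ± 0.21), acsl1.S (-0.96 ± 0.25) and both features named cpt2 (-0.86 ± 0.20 and -0.75 ± 0.18). FABP3 averaged 205 scaled CPM in F1 brains and 3724 in F1 muscles, against 213 in CTS brains and 1695 in CTS muscles. The summed share of the list was 10894 to 17962 unscaled CPM in F1 muscles and 7449 to 11960 in CTS muscles, ranges that overlap. Against BTS none of the 31 was called. Other sums also differed between F1 and CTS muscles. The ribosomal protein sum was 6668 to 20857 unscaled CPM in CTS muscles (median 9219) and 6888 to 20709 in F1 (median 17122). The respiratory sum was 7220 to 16584 in CTS muscles (median 11115) and 9928 to 21947 in F1 (median 19834). Against CTS, 0 of 55 ribosomal protein genes and 1 of 38 respiratory genes were called. Whether the fuel gene calls follow such library differences was not tested. Of 27 tested collagen and matrix genes, 3 were higher in F1 than in CTS, beside 1.68% of all features. Against BTS 5 of the 27 were lower in F1, beside 1.3% of all features. The list's summed share in muscle was 853 to 1799 unscaled CPM in F1, 1433 to 2898 in CTS and 451 to 1619 in BTS. The part of connective tissue in the muscle samples was not tested.

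Neuronal lists moved with 1 CTS library. The muscle of CTS animal 66 held 1426 unscaled CPM of the neuronal list, against 484 to 634 in the other 4 CTS muscles and 349 to 605 in F1 muscles, and 223 unscaled CPM of GABA and glycine genes, against 0.815 to 8.64 in F1 muscles. With it, the median difference, F1 minus CTS, was 1.37 over 45 neuronal genes and 1.29 over 38 synaptic vesicle genes, and without it 0.12 and 0.08. Calls against CTS numbered 324 without that animal. Of the 5 synaptic vesicle genes called higher in F1 than in CTS, among them DNM1, a dynamin of synaptic vesicle uptake (2.67 ± 0.43), and slc17a8.L, a vesicular glutamate transporter (4.61 ± 1.11), 4 were called without it. Carry-over of brain RNA was not tested.

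Lastly, the level of each gene in brain was set against its level in muscle of the same animal. Pearson's r of log2 CPM over the 12 animals was computed for 11055 genes with a mean of at least 1 scaled CPM in both tissues, with permutation tests of 100000 resamples and Benjamini-Hochberg adjustment over these genes. The median r was 0.16 and r was above 0 for 66.4% of genes. An unadjusted p under 0.05 was reached by 1112 genes and an adjusted one by 3 (0.0271%), all with a positive r and with p = 1e-05, the smallest the permutations can give.

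For 1 of the 3 the animals formed no separate clusters, taken as a gap of over 0.4 of the log2 range in a tissue. FAHD1, a mitochondrial acylpyruvase, had 1.05 to 2.98 scaled CPM in brain and 0.533 to 3.93 in muscle, with r = 0.94 and Spearman's rho = 0.92 (permutation test, adjusted p = 0.0369 for r and 0.221 for rho). Without the 2 animals farthest from the brain median r was 0.92. Animals 8 and 49 were highest in both tissues and animals 3, 5 and 19 lowest.

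The other two held clusters of animals, so no pooled r is given. The feature mRNA01387, which has no gene name, had 2.01 to 4.91 scaled CPM in brain and 1.15 to 3.93 in muscle of 7 animals, while in animals 3, 5, 19, 24 and 45 it had at most 0.0752 in brain and none in muscle. B3GALT4, a galactosyltransferase of glycolipids, had 29.8 to 30.9 scaled CPM in the muscles of animals 5, 19 and 24 and 1.36 to 7.22 in the other 9. In the brains of these 3 animals it had 14.4 to 15.9, against 7.98 to 12.9 in the others. LOC109933387, which did not pass, had 0.102 scaled CPM in brain and none in muscle of animal 5, against 4.50 to 14.1 in brain and 0.925 to 22.9 in muscle of the others. No gene passed with Spearman's rho in place of r, with genes of at least 5 scaled CPM, without animals 5 and 19 or without the 2 farthest animals. Over 11055 genes, 1 gene at the smallest p gets an adjusted p of 0.111, as PRPF40B did with rho. At that p, 3 genes are needed for a call, which limits these alternatives but is not the whole of the losses. With rho, the permutation p rose to 5e-05 for FAHD1, 0.0001 for B3GALT4 and 0.00018 for mRNA01387. At 5 scaled CPM, mRNA01387 (means of 1.90 in brain and 1.52 in muscle) and FAHD1 (1.95 and 1.59) were not tested. The calls were thus not shown to be stable.

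**Figure D5:**
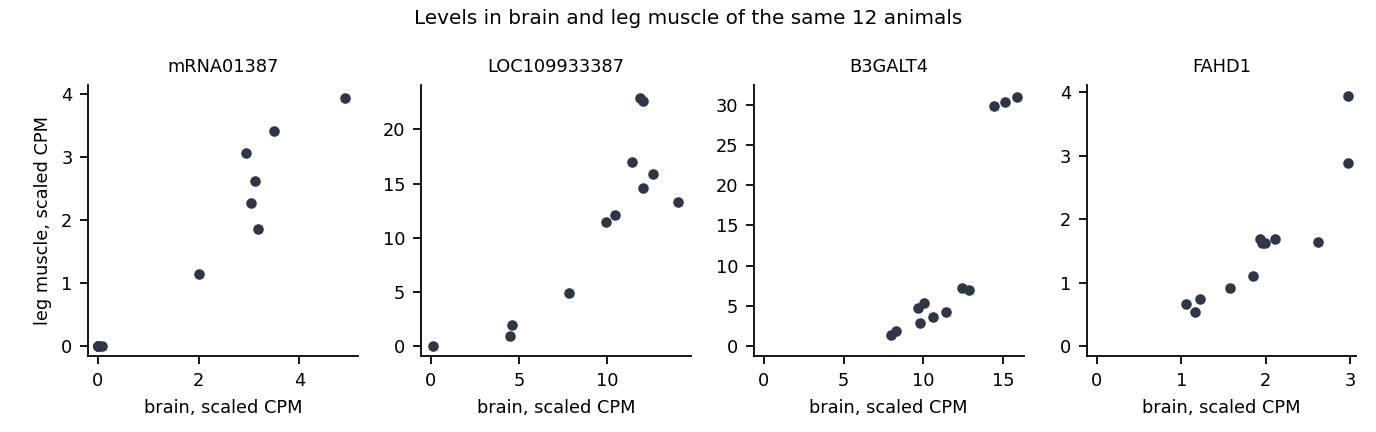
Scaled CPM in brain (x axis) and in muscle (y axis) of mRNA01387, LOC109933387, B3GALT4 and FAHD1, with 1 point for each of the 12 F1 control animals. For mRNA01387 5 animals lie at or near 0 in both tissues, and for B3GALT4 animals 5, 19 and 24 lie apart at 29.8 to 30.9 in muscle. FAHD1 spans 1.05 to 2.98 in brain and 0.533 to 3.93 in muscle, where animals 8 and 49 lie above the rest at 3.93 and 2.88.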

How the data were processed

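RNA of whole brain and leg muscle was extracted with a PureLink kit and TRIzol, made into libraries with a Kapa stranded mRNA kit and sequenced as 100 bp single reads over 6 lanes of a HiSeq4000, per the labels' protocols. The authors deposited raw read counts per feature, 1 table per tissue, with 23251 features, 974 of them unnamed. The submitters' processing notes list STAR, HTSeq, Trimmomatic and FastQC; versions, genome build, annotation and counting options are not given there, and no gene lengths, coordinates or sequences were used. Features that share a name may be copies whose reads may have been divided between them.

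Counts of the 24 libraries were analysed in R 4.3.3 with edgeR 4.0.16 and limma 3.58.1: filterByExpr on tissue left 13416 features and set aside 9835, followed by TMM scaling, a model of animal and tissue, a robust quasi-likelihood fit and two-sided tests, with Benjamini-Hochberg adjustment over all features and a threshold of 0.05. SE is the log2 fold change divided by the square root of its F statistic. For a feature with no read in a tissue, a fold is a lower bound against 3 reads over its 12 libraries (0.0176 scaled CPM in brain, 0.0453 in muscle), which covers counting error only; with 1 to 3 reads, levels alone are given. DESeq2 1.42.0 was an alternative. On simulated counts for the brain over muscle comparison (13013 features), 98% of 2-fold and 100% of 4-fold changes were called. Of all calls there, 7.51% were false. Both tissues were simulated from the brain means, with 100 features changed by 2-fold and 99 by 4-fold. The simulation thus lacks the few dominant features of muscle and the features with few muscle reads, and does not test the scaling.

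The pairing rests on the animal number in the titles. Deviations of a brain and its own muscle from their tissue means correlated at -0.06 to 0.53, and 5 of 12 brains correlated best with their own muscle. P-values of the tissue and genotype tests rest on the spread between animals of the brain to muscle difference. Those of the correlations come from permuting the pairing of brains and muscles.

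The animals, the 32 gene lists, the isozyme types and the tests were chosen with earlier results of these data known, and several lists follow those of an earlier analysis. Named genes were, by rule, the largest changes seen in 12 of 12 animals at 50 CPM or more, up to 2 most abundant, 1 smallest p and 2 opposing members per list, all isozymes, heat shock and immediate early genes of 10 CPM or more, 5 per direction for genotype differences, 8 for agreement between tissues and 10 most abundant per tissue. The text describes a choice of these, and some are not reported here. List members named for a genotype difference were chosen after their values were seen. Lists are described by counts and medians, with no set test. The alternatives without 6 animals whose ribosomal protein share was under 12000 unscaled CPM, without animals 5 and 19, and the count called in all 4 scalings were chosen after seeing the data.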

Additional observations from a re-analysis of the deposited data

Results flagged for a closer look

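The difference of the brain over muscle log2 fold change between genotypes, by its interaction term, passed the threshold for 20 named features. For F1 minus CTS it was higher for LOC102361187 (13.35), LOC109285436 (8.44), SEZ6L (5.38), HAO2 (3.91) and RAB39B (2.54), and lower for GALNT5 (-4.05), NPDC1 (-3.26), DNAJC15 (-2.97), ZNF300 (-2.70) and KIFAP3 (-1.96). For F1 minus BTS it was higher for KBTBD12 (4.29), mRNA00876 (2.904), LOC102447962 (2.23), LOC102396279 (2.05) and bud23.L (1.16), and lower for mRNA00223 (-8.87), LOC108799640 (-3.54), ISYNA1 (-3.10), IFT81 (-2.53) and BASP1 (-2.51).

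The value for LOC102361187 depends on the prior count and is no measured fold, since the feature averaged 13.1 scaled CPM in F1 brains and 0.0135 in F1 muscles, with no read in any CTS brain and 4 reads in all over the CTS muscles; its call was lost without CTS animal 66. LOC109285436 averaged 11.4 scaled CPM in F1 brains and 0.292 in F1 muscles, against 0.0514 in CTS brains and 0.612 in CTS muscles.

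Dixon's test at 95%, over 40 groups of 4 or 5 parental libraries for these features, set 7 libraries apart from the rest of their group. Chance alone does so for about 1 group in 20 with normally distributed values, which counts near 0 are not. For LOC102361187, LOC109285436, KBTBD12 and mRNA00223 the group held 4, 4, 3 and 2 reads in all, each from the library set apart. With no read in the rest of a group, the test sets such a library apart whatever its level. The muscle of CTS animal 66 was highest for LOC102361187, at 1.51 scaled CPM, that of CTS animal 57 for SEZ6L, at 76.1, and that of CTS animal 63 for GALNT5, at 1.42. The brain of CTS animal 83 was highest for LOC109285436, at 0.257, and the brain of BTS animal 71 for KBTBD12, at 0.244. The brain of BTS animal 74 was lowest for LOC108799640, at 106, and the muscle of BTS animal 60 was highest for mRNA00223, at 0.460.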

How the results depend on the processing

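Library totals moved the most: 11311 features were higher in brain and 1158 lower, and members of the 32 lists lower in brain numbered 246, as they did under the rule of all 4 scalings, which left 1158 features lower. Under library totals the sign of these genes changed from lower to higher in brain, as log2 fold changes: ACTN1 1.93, CKB (the less abundant feature) 1.55, mef2d 1.53, HSPA9 (the less abundant of its features) 1.37, OLIG2 1.34, DNAJA1 1.19, CD74 1.05, KRT18 1.01, JUN 1.01, UCHL1 0.94, NDRG2 0.93, SLC4A1 0.69, DDIT4 0.61, PSMC1 0.53, STIP1 0.40, HSP90AB1 0.29 and cox7a2.S 0.19. This follows from the construction, which moves each log2 fold change toward brain by about 1.99.

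DESeq2 gave 732 genotype differences for CTS and 651 for BTS; the cause was not tested. Leaving out 1 animal gave 273 to 576 for CTS and 77 to 447 for BTS. Without the replicate block, differences for CTS numbered 984, and 103 named genes were higher in brain, in place of 104. Of 193 genes checked singly, 163 kept both sign and call status under library totals and 189 or more under each other alternative; under library totals 10 lost their call, 3 gained one and 17 changed sign. No gene correlated between tissues with Spearman's rho (0), at 5 CPM or more (0), without animals 5 and 19 (0) or without the 2 farthest animals (0), counts that the smallest possible permutation p limits. Depth limits muscle most, where a tested feature without reads can lie up to 0.0453 scaled CPM.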
